A study of Mus musculus with 7 samples.

Results

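The replication-dependent histone genes were taken as every symbol in the deposited count tables that begins with Hist1h, Hist2h, Hist3h or Hist4h. There were 28 such genes of 23930, namely 6 of linker histone H1, 7 of H2A, 6 of H2B, 3 of H3 and 6 of H4. The GENCODE M21 annotation holds 70 such symbols. Levels of a class or of all histone genes below are therefore sums over the measured members only. A targeted RNA sequencing kit read each gene by 1 amplicon. The 7 libraries came from progenitors sorted from mouse bone marrow and fall into 4 groups. The controls were common myeloid progenitors (CMPs) of C57BL/6 mice (BL/6, 2 libraries). The pMT-10 mouse overexpresses the cytokine IL-10 from a zinc-inducible metallothionein promoter, and it gave CMPs (2 libraries). It also gave cells that lack lineage markers and carry SCA-1, c-KIT, CD150 and CD48 (LSK CD150+CD48+, 2 libraries) and haematopoietic stem cells (HSC, 1 library). All mice, controls included, drank zinc for 15 days. The labels used here give no ages, no strain background for pMT-10, no gates for CMP and HSC, and no animal for each library. Replicates may therefore differ only technically, and the p-values rest on that spread.

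Histones package DNA. Pairs of H2A, H2B, H3 and H4 form the core of the nucleosome, and H1 binds the linker DNA between cores. A dividing cell needs new histone for each copy of its genome, so these genes are switched on together in S phase by Npat, a substrate of cyclin E and Cdk2. Their mRNAs carry no poly(A) tail in their main form and end in a short stem-loop instead, which Slbp binds to guide processing, translation and decay. In bone marrow, stem cells divide rarely and progenitors divide often, so histone mRNA is usually read beside the cell cycle genes.

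The stem-loop is the sequence that the classes share, and it is shown here because it sets these genes apart from other genes in the annotation. It was searched as GGNNC followed by TTTTNAG and NNCC, without gaps, after the stop codon, on the transcript strand, in the GENCODE M21 transcripts (GRCm38). Of the 26 members with a coding model 18 held it, against 17 of 22433 other coding genes (0.0758%). Transcript models of 21 members reached 30 or more bases past the stop codon. The loops of 10 members below are given 5′ to 3′, with the 16 bases of the stem and loop in capitals and 5 bases on each side.
Hist1h1d: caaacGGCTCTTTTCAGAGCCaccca
Hist1h2ab: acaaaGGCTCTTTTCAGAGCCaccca
Hist1h2bb: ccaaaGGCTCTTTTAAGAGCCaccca
Hist1h2bh: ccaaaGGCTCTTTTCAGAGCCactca
Hist1h2bm: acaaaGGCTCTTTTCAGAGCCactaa
Hist1h3a: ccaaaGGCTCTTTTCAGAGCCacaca
Hist1h4h: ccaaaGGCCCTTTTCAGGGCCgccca
Hist1h4i: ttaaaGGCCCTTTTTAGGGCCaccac
Hist2h4: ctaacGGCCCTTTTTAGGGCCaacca
Hist4h4: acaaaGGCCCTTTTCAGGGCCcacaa
All 13 matched members of H1, H2A, H2B and H3 had one of a pair of forms, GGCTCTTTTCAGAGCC in 10 and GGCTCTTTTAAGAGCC in 3. The 5 matched H4 genes had other stems, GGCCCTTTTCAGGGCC in 2, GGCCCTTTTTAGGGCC in 2 and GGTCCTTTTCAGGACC in 1. The annotated models run on past the loop by 11 to 4884 bases, and the positions of the amplicons were not used here. Whether reads came from mRNA that ends at the loop or from longer polyadenylated forms was not tested.

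The upstream sequences also differed between classes. RefSeq promoters (GRCm38.p6) were given for 22 members, and the 250 bases before the start were searched on both strands for 5 short motifs. The CCAAT box (CCAAT) was in 18 of 22 members (81.8%, against 33.8% of all 32851 promoters), in every H1, H2A, H2B and H3 window and in 1 of 5 of H4. The TATA box (TATAAA) was in 13 (59.1%, against 12.4%). The octamer ATTTGCAT, known from H2B promoters, was in 4 of 6 of H2A and 3 of 4 of H2B, in 0 windows of the other classes, and in 1.60% of all promoters. The H1 box AAACACA was in 5 of 6 of H1, 2 of 6 of H2A and 2 of 4 of H2B (6.25% of all promoters). GGTCCG, known from H4 promoters, was in 3 of 5 of H4 and 1 of 4 of H2B (6.72% of all promoters). Windows of 4 genes that the results below turn on are given with the motifs in capitals, as the 150 bases that end just before the start of the gene.
Hist1h1d (chr13:23554882-23555031, plus strand): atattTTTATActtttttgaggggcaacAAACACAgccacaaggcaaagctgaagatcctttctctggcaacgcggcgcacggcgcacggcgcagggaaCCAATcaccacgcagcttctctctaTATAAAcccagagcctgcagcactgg
Hist1h2bm (chr13:21721894-21722043, plus strand): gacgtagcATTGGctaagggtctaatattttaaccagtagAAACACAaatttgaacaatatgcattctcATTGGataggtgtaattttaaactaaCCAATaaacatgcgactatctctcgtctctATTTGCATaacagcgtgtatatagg
Hist1h2bh (chr13:23543445-23543594, minus strand): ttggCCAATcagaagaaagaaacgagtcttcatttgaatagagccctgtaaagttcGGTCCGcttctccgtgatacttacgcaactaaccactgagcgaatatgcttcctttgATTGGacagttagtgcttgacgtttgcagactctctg
Hist4h4 (chr6:136804432-136804581, minus strand): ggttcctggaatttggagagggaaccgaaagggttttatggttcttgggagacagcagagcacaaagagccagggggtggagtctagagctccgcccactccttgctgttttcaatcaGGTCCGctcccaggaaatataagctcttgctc
ATTGG and TTTATA are the CCAAT and TATA boxes read on the other strand. A match describes the letters only, and binding of a factor was not measured.

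Together the histone genes took 0.884 to 1.88% of the counts of a library, and their level was lowest in HSC. Levels are given in CPM, the counts scaled to a common library total with TMM factors. The summed level was 15464 and 19210 CPM in the BL/6 CMP libraries, 12979 and 12914 in pMT-10 CMPs, 8619 in HSC and 16687 and 18351 in LSK CD150+CD48+ cells. The group means were 17519 ± 1176 CPM (SD, n = 2) for LSK CD150+CD48+ cells and 17337 ± 2649 CPM for BL/6 CMPs, which did not differ beyond their spread. Both libraries of pMT-10 CMPs (12947 ± 46.0 CPM) lay under all 4 libraries of those groups. Their near-equal sums hold opposite differences by class, with H1 at 4502 and 6135 CPM and H2B at 2374 and 1666 CPM. The HSC library lay under all others. HSC thus held 2.03-fold less than LSK CD150+CD48+ cells, 2.01-fold less than BL/6 CMPs and 0.666 times the level of pMT-10 CMPs, with no test of the sums. In such bulk samples fewer cells that make histone mRNA and less of it in each cell cannot be told apart.

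**Figure D1:**
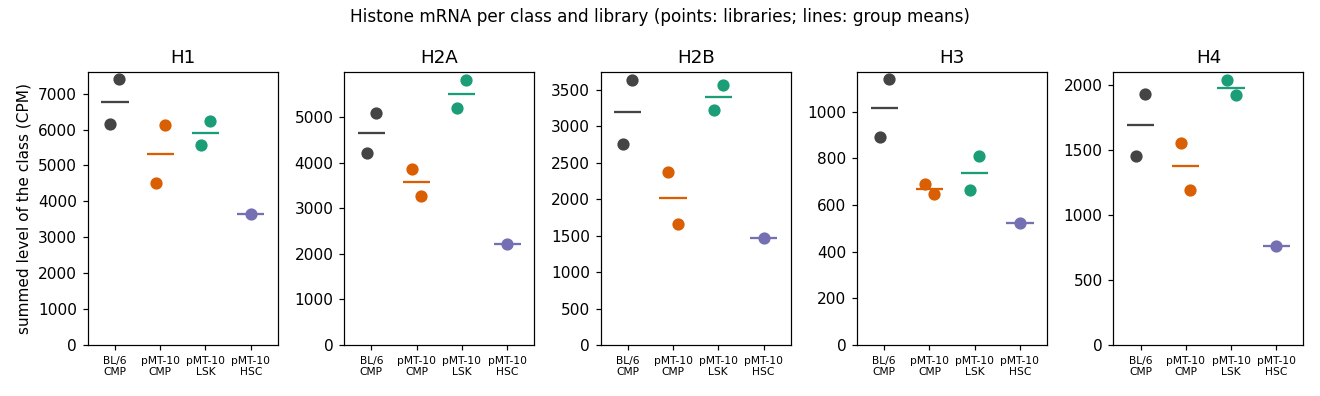
Summed level of the histone genes of each class, in CPM on an axis from 0, in each library (points) with the group means (lines). The single HSC library is the lowest in all 5 classes.

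Summed over its measured members, every class had its lowest level in HSC, and the classes differed in the order of the other groups. H4, the most conserved core histone, was at 758 CPM in HSC against 2034 and 1917 in LSK CD150+CD48+ cells, 2.60-fold less. H2A was 2.48-fold and H2B 2.31-fold lower in HSC than in LSK CD150+CD48+ cells. H1 was 1.62-fold and H3 1.41-fold lower. Between the CMPs the ratio of the means was largest in H2B, at 1.58-fold, and next in H3, at 1.52-fold. H2B was at 2759 and 3640 CPM in BL/6 against 2374 and 1666 in pMT-10, without overlap but with a wide spread in both pairs. H3 was highest in BL/6 CMPs, at 893 and 1139 CPM, against 646 to 811 CPM in pMT-10 CMPs and LSK CD150+CD48+ cells. The libraries of pMT-10 and BL/6 CMPs overlapped in H4 (1190 and 1555 against 1452 and 1931 CPM), and in the other 4 classes they did not. In H1 they nearly met, at 6135 CPM in pMT-10 CMP replicate 2 and 6141 CPM in BL/6 CMP replicate 1.

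Total counts ran from 7372430 in HSC to 13854314 in LSK CD150+CD48+ replicate 2, and a count of 0 allowed up to 0.217 to 0.407 CPM. One deposited table holds pMT-10 CMPs with LSK CD150+CD48+ cells and the other holds BL/6 CMPs with HSC, and the names of the tables carry different dates. Strain and table therefore cannot be told apart in the CMPs, nor population and table between HSC and the other pMT-10 cells. Log2 ratios between the pMT-10 CMP libraries spread more across genes (SD 0.823) than between the BL/6 libraries (0.385) or those of LSK CD150+CD48+ cells (0.474). Of the labelled populations, the HSC library had Procr, a stem cell receptor, at 38.5 CPM against 0 to 2.20 in the others. Ly6a, which encodes SCA-1, was at 331 CPM in HSC and 325 and 249 in LSK CD150+CD48+ cells, but 19.4 and 28.0 in pMT-10 CMPs and 0.0923 and 2.02 in BL/6 CMPs. Mpo, a granule gene of myeloid progenitors, was at 6.02 to 16.8 CPM in the libraries labelled CMP. It was lower in LSK CD150+CD48+ cells (3.16 and 1.15 CPM) and HSC (0.265 CPM). The CMP markers Cebpa, Fcgr3 and Cd34 were also higher in all CMP libraries than in the others, but Kit and Gata2 were not. The 6 CMP markers summed highest in LSK CD150+CD48+ cells (1566 and 1670 CPM), where Gata2 alone gave 1447 and 1511 CPM.

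Of the 28 genes, 21 passed the filter on low counts, namely 6 of H1 and 4 of H2A, 4 of H2B, 2 of H3 and 5 of H4. Hist1h2aa and Hist1h2ba, the testis forms of H2A and H2B, had 0 counts in every library. Hist1h2ae of H2A (1 to 10 counts), Hist1h3f of H3 (0 to 3) and Hist1h4j of H4 (0 to 8) were too low to test. So were Hist1h2al (0 to 1) and Hist3h2bb-ps (3 to 10), which RefSeq lists as pseudogenes. Hist1h1t, the testis linker histone, was tested with 1 to 18 counts per library and passed in 0 comparisons. The level of each member can be compared across libraries but not between genes, because each is read by its own amplicon. Many members are near copies of each other. The coding sequences of Hist1h2ac and Hist1h2ae each match 10 other annotated genes at 97% identity or more. That of Hist1h2ab matches 9, those of Hist1h2bh and Hist1h3d 8 each, and those of Hist1h3a and Hist1h3f 7 each. Hist1h2bm matches 5, Hist1h2ak 3, and Hist1h4a and Hist1h4j 1 each. Reads of all these members may be shared between copies. Members of H1 are at most 84.5% identical to the nearest other gene, Hist1h2bb is 94.8%, Hist2h4 91.3% and Hist4h4 87.2%. All members lie on chromosome 13 except Hist2h2ab, Hist2h2be and Hist2h4 on chromosome 3, Hist3h2bb-ps on 11 and Hist4h4 on 6.

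**Figure D2:**
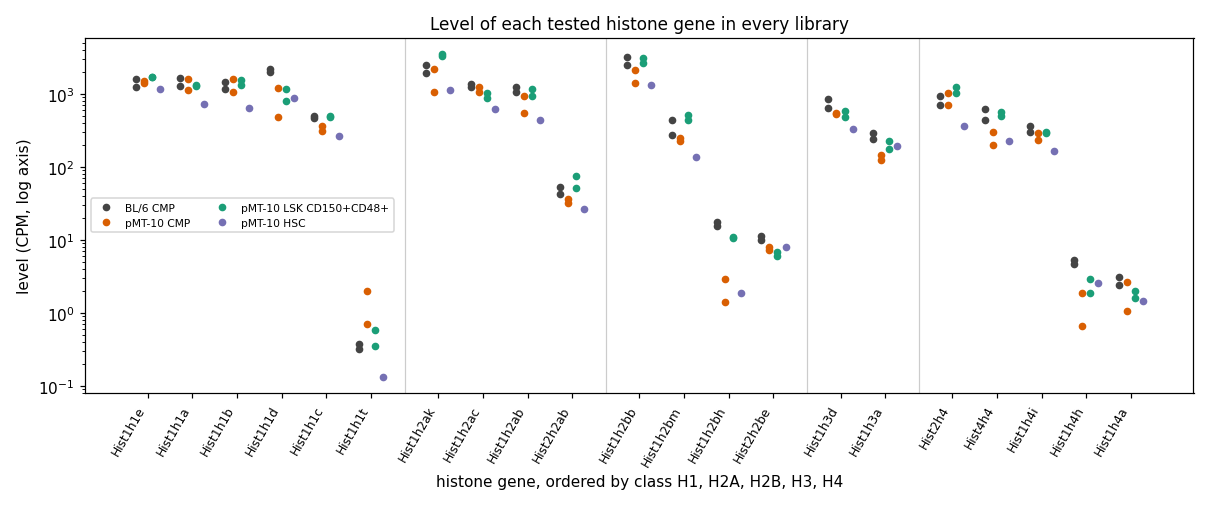
Level of the 21 tested histone genes in CPM on a log axis, with 1 point for each library, coloured by group and ordered by class and mean level. The HSC point is below both BL/6 CMP points for all 21 genes. It is below both pMT-10 CMP points for 13 genes, above both for 3 and between them for the rest, such as Hist1h2bh.

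HSC were set against LSK CD150+CD48+ cells, both from marrow with IL-10 overexpression. Of the 21 tested members 11 fell and 0 rose in HSC (52.4% lower), where 8.14% of all 11429 tested genes were lower and 10.6% higher. At an unadjusted p under 0.05 there were 15 lower and 0 higher, and DESeq2 called 14 lower and 0 higher. The calls held 2 of 6 tested H1 genes, 3 of 4 of H2A, 3 of 4 of H2B, 0 of 2 of H3 and 3 of 5 of H4. The median log2 fold change was -0.87, against 0.03 for all genes. A single HSC library carries this difference, and its spread is taken from the other groups.

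The 2 largest of the called falls were in H2B genes. Hist1h2bm (chromosome 13, 21722044 to 21722526, plus strand) was at 518 and 439 CPM in LSK CD150+CD48+ cells and 137 in HSC. The HSC value was also under the 225 and 250 CPM of pMT-10 CMPs and the 269 and 432 of BL/6 CMPs. The log2 fold change against LSK CD150+CD48+ cells was -1.81 ± 0.31 (SE, edgeR adjusted p = 0.00663). Hist1h2bh (chromosome 13, 23542923 to 23543444, minus strand) was at 10.7 and 10.5 CPM in LSK CD150+CD48+ cells and 1.85 in HSC, a log2 fold change of -2.51 ± 0.52 (adjusted p = 0.0123). Its counts were low, with 14 reads in HSC. Hist1h2bb, whose loop reads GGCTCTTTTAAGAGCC, was at 2690 and 3112 CPM in LSK CD150+CD48+ cells and 1325 in HSC (-1.13 ± 0.30, adjusted p = 0.0319). Hist2h2be, known as the H2B form of olfactory neurons in mice, went the other way at 5.96 and 6.69 against 7.94 CPM, and it was not called (0.32 ± 0.36).

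Of H4, Hist2h4 (chromosome 3, 96262934 to 96263317, minus strand) was at 1236 and 1041 CPM in LSK CD150+CD48+ cells and 361 in HSC, its lowest value. The log2 fold change was -1.66 ± 0.31 (adjusted p = 0.00852). Hist4h4 (chromosome 6, 136803993 to 136804431, minus strand), a lone H4 gene on its chromosome in this set, went from 503 and 567 to 229 CPM (-1.23 ± 0.32, adjusted p = 0.0288). Hist1h4i went from 291 and 304 to 165 CPM (-0.85 ± 0.24, adjusted p = 0.0374). These 3 genes fell, while the low Hist1h4h (1.87 and 2.88 against 2.51 CPM) and Hist1h4a (1.99 and 1.58 against 1.46 CPM) were not called.

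Of H2A, Hist1h2ak (chromosome 13, 21753377 to 21753912, minus strand) had its highest level in LSK CD150+CD48+ cells, at 3337 and 3518 CPM, against 1137 in HSC. The log2 fold change was -1.59 ± 0.40 (adjusted p = 0.0266). Hist1h2ab went from 930 and 1175 to 434 CPM (-1.28 ± 0.33, adjusted p = 0.0302). Hist2h2ab, an H2A gene of the chromosome 3 cluster, went from 51.4 and 73.9 to 26.7 CPM (-1.23 ± 0.31, adjusted p = 0.0268). Hist1h2ac was at 883 and 1040 against 618 CPM and did not pass (-0.64 ± 0.23). All 4 tested H2A genes were thus below both LSK CD150+CD48+ libraries.

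Of the linker genes 2 passed. Hist1h1b (H1f5 in RefSeq) was at 1315 and 1573 CPM in LSK CD150+CD48+ cells and 639 in HSC (-1.18 ± 0.30, adjusted p = 0.0269). Hist1h1c (H1f2) was at 475 and 505 against 268 CPM (-0.87 ± 0.22, adjusted p = 0.0263). Hist1h1d (H1f3) was at 793 and 1156 against 864 CPM, and HSC lay between the LSK CD150+CD48+ libraries. Hist1h1a and Hist1h1e were lower by 0.84 ± 0.27 and 0.56 ± 0.23 on the log2 scale and were not called. Hist1h1t, with 1 read in HSC, had a log2 fold change of -1.76 ± 1.57 and was not called. Hist1h3d of H3 was at 486 and 585 against 327 CPM (-0.71 ± 0.25), and Hist1h3a was at 177 and 226 against 194 CPM, within the LSK CD150+CD48+ pair. Neither H3 gene was called.

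With either LSK CD150+CD48+ library left out, 0 of the 11 genes passed in HSC against LSK CD150+CD48+ cells, and all 11 kept their sign. The number of called histone genes rose without either pMT-10 CMP library and fell without either BL/6 library. Calls over all tested genes moved the same way, and fell without either LSK CD150+CD48+ library too. The number of calls thus depended on the libraries kept for all tested genes and not only for the histone genes.

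The HSC library can be set against BL/6 CMPs within one deposited table, where strain and population differ together. This comparison was added after the data were seen. All 21 tested members were below both BL/6 libraries, and 12 fell (57.1%) with 0 higher, where 8.50% of all tested genes were lower and 11.8% higher. At an unadjusted p under 0.05 there were 15 lower and 0 higher, and DESeq2 called 13 lower and 0 higher. The median log2 fold change was -1.04, against -0.01 for all genes. Hist1h2bh fell from 17.4 and 15.6 to 1.85 CPM (-3.15 ± 0.52, edgeR adjusted p = 0.00339). Hist1h2bm fell by 1.36 ± 0.31 (adjusted p = 0.0149) and Hist1h2ab by 1.39 ± 0.34 (adjusted p = 0.0194) on the log2 scale. Hist1h3d fell from 649 and 853 to 327 CPM (-1.20 ± 0.25, adjusted p = 0.0108), and Hist4h4, Hist2h4 and Hist1h4i fell by 1.20 ± 0.32, 1.20 ± 0.30 and 0.99 ± 0.24. Hist1h2ac fell by 1.06 ± 0.23, Hist1h2bb by 1.09 ± 0.30, Hist1h1a by 1.04 ± 0.27, Hist1h1b by 1.03 ± 0.30 and Hist1h1c by 0.82 ± 0.22. Hist1h1e differed least, at 1238 and 1618 against 1155 CPM (-0.31 ± 0.23). Without BL/6 replicate 2 the calls dropped to 1 (Hist1h2bh), without BL/6 replicate 1 to 6, and without either LSK CD150+CD48+ library to 4. The comparison shares the HSC library with the ones above and below, so they are not independent.

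Against pMT-10 CMPs, across tables, 4 members fell in HSC (19.0%) and 0 rose, where 11.7% of all tested genes were lower and 13.8% higher. At an unadjusted p under 0.05 there were 8 lower and 0 higher, and DESeq2 called 6 lower and 0 higher. Hist2h4 fell from 1015 and 695 to 361 CPM (-1.24 ± 0.30, edgeR adjusted p = 0.0180). Hist1h1b fell from 1075 and 1604 to 639 CPM (-1.07 ± 0.30, adjusted p = 0.0292), and Hist1h1a from 1138 and 1582 to 724 CPM (-0.91 ± 0.27, adjusted p = 0.0365). Hist1h2ac fell from 1062 and 1254 to 618 CPM (-0.91 ± 0.23, adjusted p = 0.0216). The H2B gene Hist1h2bh did not differ from pMT-10 CMPs beyond the spread, at 2.87 and 1.39 against 1.85 CPM. Of the 21 tested members 13 were below both pMT-10 CMP libraries in HSC and 3 were above both. Hist1h3a of H3 was above both, at 194 against 147 and 124 CPM, and was not called (0.52 ± 0.24). So were Hist1h4h (2.51 against 0.662 and 1.85 CPM) and Hist2h2be (7.94 against 7.28 and 7.88 CPM), which were not called either. The 4 calls dropped to 2 without BL/6 replicate 1, without BL/6 replicate 2 or without LSK CD150+CD48+ replicate 2. Leaving out LSK CD150+CD48+ replicate 1 left only 1, Hist1h2ac. Without either pMT-10 CMP library more histone genes were called lower, and in both cases a histone gene was also called higher. Calls over all tested genes rose in number there too.

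**Figure D3:**
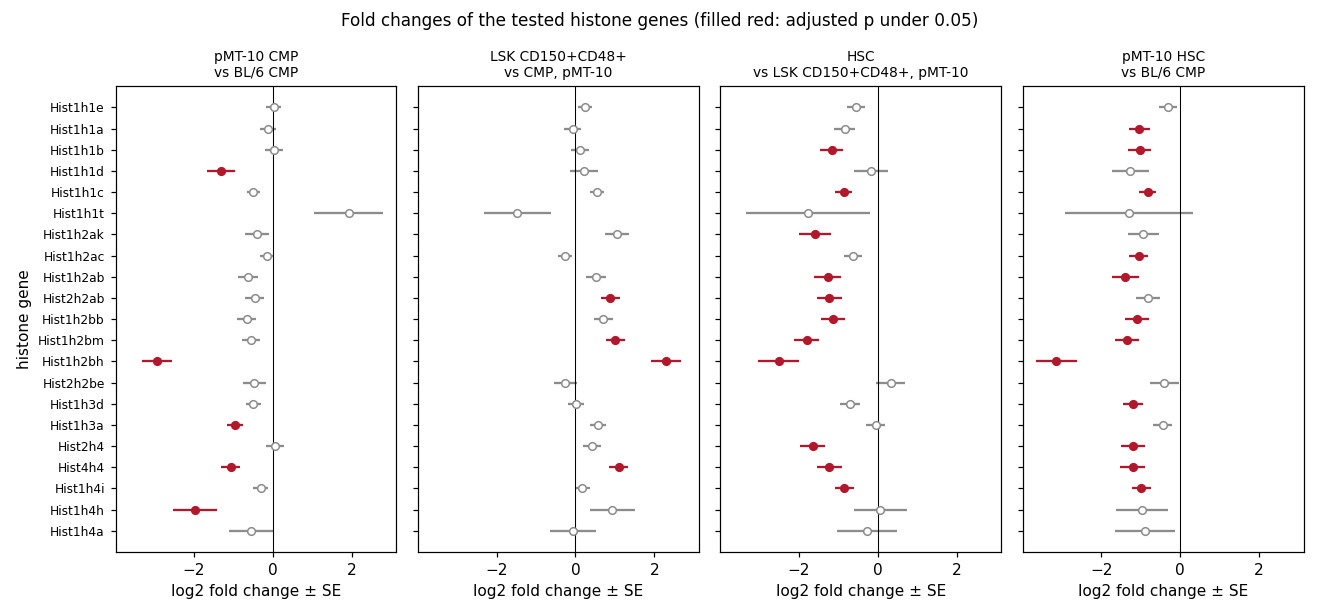
Log2 fold change ± SE of the 21 tested histone genes in 4 comparisons, with filled red points for an adjusted p under 0.05. Most members lie left of 0 in pMT-10 against BL/6 CMPs and in HSC, and most lie right of 0 in LSK CD150+CD48+ cells against CMPs.

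IL-10-overexpressing CMPs were compared with BL/6 CMPs, across both strain and table. Of the 21 tested members 5 fell and 0 rose in pMT-10 CMPs (23.8% lower), where 13.7% of all tested genes were lower and 14.3% higher. At an unadjusted p under 0.05 there were 10 lower and 0 higher, and DESeq2 called 7 lower and 0 higher. The median log2 fold change was -0.49, against 0.01 for all genes, with 17 of 21 values negative.

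The fall was largest in Hist1h2bh, at 17.4 and 15.6 CPM in BL/6 CMPs and 2.87 and 1.39 in pMT-10 CMPs. Its log2 fold change was -2.94 ± 0.38 (edgeR adjusted p = 0.00185), and its reads numbered 189 and 193 against 26 and 12. The other H2B genes did not pass: Hist1h2bb was at 2463 and 3181 against 2139 and 1407 CPM (-0.67 ± 0.23).

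The H4 genes split. Hist4h4 was at 434 and 617 CPM in BL/6 and 300.2 and 200.1 in pMT-10 CMPs (-1.07 ± 0.25, adjusted p = 0.0131). Hist1h4h (chromosome 13, 23531044 to 23531478, plus strand) was at 4.62 and 5.25 against 0.662 and 1.85 CPM (-1.97 ± 0.56, adjusted p = 0.0285), on 6 and 16 reads in pMT-10. Hist2h4 was at 712 and 945 against 1015 and 695 CPM, overlapping, with a log2 fold change of 0.04 ± 0.23.

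Of H1, Hist1h1d (chromosome 13, 23555032 to 23555807, plus strand) was at 1990 and 2179 CPM in BL/6 and 488 and 1186 in pMT-10 CMPs. It fell by 1.32 ± 0.36 on the log2 scale (adjusted p = 0.0263). Hist1h1a, Hist1h1b and Hist1h1e overlapped between the strains, with log2 fold changes of -0.13 ± 0.21, 0.04 ± 0.23 and 0.02 ± 0.18. Of H3, Hist1h3a was at 244 and 286 against 147 and 124 CPM (-0.97 ± 0.20, adjusted p = 0.00844), and Hist1h3d at 649 and 853 against 542 and 522 CPM was not called. No H2A gene was called, and Hist1h2ab came nearest at 1049 and 1229 against 541 and 922 CPM (-0.64 ± 0.26).

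Hist1h2bh passed with each of the 6 libraries of the paired groups left out in turn. Without BL/6 replicate 2 it was the only 1 of the 5 to pass, and without BL/6 replicate 1 there were 2. Without either LSK CD150+CD48+ library Hist1h1d and Hist1h4h did not pass, which left 3, and without pMT-10 CMP replicate 1 or 2 there were 8. After subtraction of the difference between the tables seen between HSC and LSK CD150+CD48+ cells, which holds their cell type too, 11 members were lower, and Hist1h1d, Hist1h3a and Hist1h4h were not among them.

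LSK CD150+CD48+ cells were compared with CMPs of pMT-10 mice within one table. Of the 21 tested members 4 rose and 0 fell (19.0% higher), where 5.92% of all tested genes were higher and 5.92% lower. At an unadjusted p under 0.05 there were 8 higher and 0 lower, and DESeq2 called 7 higher and 0 lower. The median log2 fold change was 0.41, against -0.01 for all genes. Hist1h2bh rose from 2.87 and 1.39 to 10.7 and 10.5 CPM (2.31 ± 0.38, edgeR adjusted p = 0.00704). Hist4h4 rose from 300.2 and 200.1 to 503 and 567 CPM (1.10 ± 0.25, adjusted p = 0.0242), and Hist1h2bm from 225 and 250 to 518 and 439 CPM (1.01 ± 0.24, adjusted p = 0.0280). Hist2h2ab rose from 32.2 and 36.0 to 51.4 and 73.9 CPM (0.88 ± 0.24, adjusted p = 0.0450). The groups did not overlap in any of these 4 genes. Hist1h2ak was at 2224 and 1065 against 3337 and 3518 CPM, and with that wide CMP pair it was not called (1.06 ± 0.31). Hist1h2ac went slightly the other way, at 1062 and 1254 against 883 and 1040 CPM (-0.27 ± 0.18). Without either LSK CD150+CD48+ library 0 of the 4 passed. More histone genes were called without either pMT-10 CMP library. Calls over all tested genes moved the same ways, down without an LSK CD150+CD48+ library and up without a pMT-10 CMP library. The dependence of the call numbers on the libraries kept was thus not limited to the histone genes.

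The make-up of a class also differed between libraries, as the share of its counts that each member took. Hist1h1d took 32.4% of the H1 counts in BL/6 replicate 1 (exact binomial 95% interval 32.0 to 32.8%, for counting error only) and 29.4% in replicate 2. It took 23.7% in HSC (23.2 to 24.2%), 10.8 and 19.3% in pMT-10 CMPs, and 14.3 and 18.5% in the LSK CD150+CD48+ libraries. The 3 libraries of the table with BL/6 CMPs and HSC were thus above the 4 of the other table, and population, strain and table cannot be told apart here. Hist1h2ak took 57.6% of H2A counts in pMT-10 CMP replicate 1 and 32.5% in replicate 2, a wider gap than between the libraries of the other 2 pairs. It took 51.3% in HSC, 45.1 and 48.3% in BL/6 CMPs, and 64.2 and 60.6% in the LSK CD150+CD48+ libraries. Hist4h4 took 19.3 and 16.8% of H4 counts in pMT-10 CMPs, less than the 24.7 to 32.0% in all other libraries. Hist1h3a took 37.2% of H3 counts in HSC (35.7 to 38.8%), against 19.2 to 27.9% elsewhere. Since the amplicons differ, these shares compare libraries and not the amounts of the genes.

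**Figure D4:**
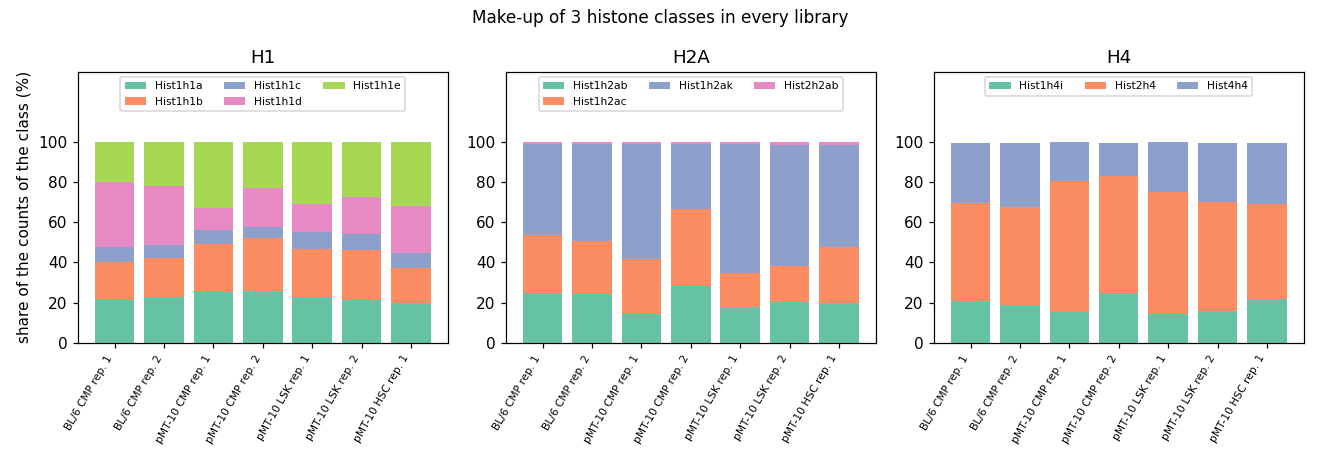
Share of the counts of H1, H2A and H4 taken by each member in every library, in percent, with members that never reach 0.5% left out. Hist1h1d is a larger part of H1 in BL/6 CMPs and HSC, and Hist1h2ak differs between the pMT-10 CMP libraries.

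The genes that switch on, process or carry histones and the cell cycle genes were counted in the same comparisons. In HSC against LSK CD150+CD48+ cells, 2 of 28 genes of histone transcription and 3′ end processing rose and 2 fell. Of all tested genes 10.6% were higher and 8.14% lower. Npat, the S phase activator of histone genes, was at 58.9 and 50.1 CPM in LSK CD150+CD48+ cells and 30.2 in HSC, under the 51.3 to 52.9 CPM of all CMP libraries. It fell by 0.85 ± 0.25 on the log2 scale (edgeR adjusted p = 0.0421), but not with total counts as the scaling, nor without either LSK CD150+CD48+ or either BL/6 library. Cpsf2, a subunit of the cleavage machinery, fell from 18.1 and 15.4 to 3.84 CPM (-2.12 ± 0.42, adjusted p = 0.0109). Cdk2, the kinase that activates Npat, rose from 167 in both libraries to 340 CPM (1.02 ± 0.21, adjusted p = 0.0123), and Coil, the scaffold of Cajal bodies, rose by 0.83 ± 0.23 (adjusted p = 0.0370). Without either LSK CD150+CD48+ library, Cpsf2, Cdk2 and Coil did not pass, and Coil did not pass without either BL/6 library.

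Slbp, the stem-loop binding protein, was called in 0 of the 5 comparisons. It was at 277 and 279 CPM in BL/6 CMPs, 205 in HSC, 214 and 209 in LSK CD150+CD48+ cells, and 189 and 278 in pMT-10 CMPs. Casp8ap2, a partner of Npat, Eri1, an exonuclease that trims the loop, and H2afx, an H2A variant of the DNA damage response whose mRNA has both endings, were also called in 0. H1f0, the linker histone of resting and differentiated cells, was at 54.4 and 57.7 CPM in BL/6 CMPs, 46.4 and 65.6 in pMT-10 CMPs and 79.6 and 82.2 in LSK CD150+CD48+ cells, with its highest level of 118 in HSC. In HSC it rose by 1.07 ± 0.25 against pMT-10 CMPs (adjusted p = 0.0153) and by 1.07 ± 0.25 against BL/6 CMPs (adjusted p = 0.0166). The latter call was lost without either BL/6 or either LSK CD150+CD48+ library, and the former with only the compared groups in the fit.

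In the same contrast of HSC with LSK CD150+CD48+ cells, 5 of 38 genes of DNA replication and S phase fell and 2 rose (median log2 fold change -0.23). Of all tested genes 8.14% were lower and 10.6% higher there. Cdc6, a licensing factor of replication origins, fell from 85.4 and 69.3 to 39.2 CPM, and Cdc7, the kinase that fires origins, rose from 41.9 and 47.3 to 123 CPM. Of 23 genes of G2 and mitosis 2 fell, near the share of all tested genes, and 0 rose. These were Aurkb, a mitotic kinase (-1.06 ± 0.24, adjusted p = 0.0181), and the proliferation marker Mki67 (-1.06 ± 0.32, adjusted p = 0.0486), which was not called by limma-voom or without either LSK CD150+CD48+ or either BL/6 library. In HSC against BL/6 CMPs, where 12 histone genes fell, 1 of 38 S phase genes rose (Cdc7) and 1 fell (Cdc6). Of 23 genes of G2 and mitosis 1 fell (Tpx2). In this comparison 8.50% of all tested genes were lower and 11.8% higher. The calls of Tpx2 and Cdc7 there were each lost when any of the BL/6 or LSK CD150+CD48+ libraries was left out, and that of Tpx2 also with total counts. In HSC against pMT-10 CMPs 7 of 38 S phase genes fell and 3 rose, where 11.7% of all tested genes were lower and 13.8% higher. Against LSK CD150+CD48+ cells and against BL/6 CMPs, Cdc6 did not pass without either BL/6 or either LSK CD150+CD48+ library, and Aurkb and Cdc7 did not pass against LSK CD150+CD48+ cells without either library of those. Of the histone chaperones, which carry free histones, 0 of 23 rose and 2 fell against LSK CD150+CD48+ cells (Rbbp4 and Asf1b, both lost without either LSK CD150+CD48+ or either BL/6 library).

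In pMT-10 against BL/6 CMPs, 8 of 38 S phase genes rose and 3 fell (median log2 fold change 0.12). Of the 21 tested histone genes 5 fell. Of all tested genes 14.3% were higher and 13.7% lower. Tyms, which makes thymidylate, fell from 155 and 161 to 36.6 and 26.4 CPM, and Cdc6 rose from 66.5 and 76.4 to 142 and 148 CPM. Of 23 genes of G2 and mitosis 2 rose and 4 fell. Of the 7 tested replication-independent variants 3 rose and 0 fell. H2afv, an H2A.Z form, rose from 65.7 and 86.6 to 156 and 173 CPM, and H2afy, which encodes macroH2A, rose from 773 and 772 to 1347 and 1581 CPM (0.92 ± 0.20, adjusted p = 0.0102). H2afj rose by 0.54 ± 0.17 (adjusted p = 0.0454). The call of H2afv was lost without BL/6 replicate 1, those of H2afy and of Cdc6 without either BL/6 library, and that of H2afj without either BL/6 or either LSK CD150+CD48+ library. Of the 28 processing genes 4 rose, near the share of all tested genes, and 5 fell. The strongest fall was in Zcchc6, a uridylyltransferase that marks histone mRNA for decay in human cells, from 400 and 295 to 76.3 and 64.6 CPM (-2.30 ± 0.23, adjusted p = 0.000725).

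In LSK CD150+CD48+ cells against CMPs of pMT-10 mice, 3 of 23 genes of G2 and mitosis rose and 0 fell, beside the 4 histone genes that rose. These were Ube2c, a ubiquitin conjugating enzyme of mitotic exit, from 126 and 96.5 to 270 and 334 CPM, the cyclin Ccna2 (1.07 ± 0.21, adjusted p = 0.0143) and the spindle gene Nusap1 (1.28 ± 0.25, adjusted p = 0.0145). The 38 tested S phase genes were split with 3 higher and 3 lower. Of all tested genes 5.92% were higher and 5.92% lower in this comparison. Both cyclin E genes fell, Ccne1 from 88.5 and 55.1 to 20.2 and 12.7 CPM and Ccne2 by 1.01 ± 0.26 (adjusted p = 0.0393). Without either LSK CD150+CD48+ library Ube2c, Ccna2, Nusap1 and both cyclin E genes did not pass, and Ccne2 did not pass without either BL/6 library.

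Several sums of markers of other cells were higher or lower in the HSC library than in all others. The 6 measured of 8 B and plasma cell markers summed to 54.0 CPM in HSC and 11.2 to 20.3 CPM in the other libraries, and Cd79b alone gave 52.3 CPM in HSC, with Ms4a1 at 0 there. The 7 measured of 8 T and NK cell markers summed to 4.90 CPM in HSC and at most 0.888 CPM elsewhere. All of the HSC sum was Klrb1c, with 37 reads, and the other 6 were at 0 counts in HSC, Cd3d and Ncr1 in all libraries. The 6 megakaryocyte markers summed to 2155 CPM in HSC and 298 to 827 CPM elsewhere, and the 5 measured of 8 erythroblast markers to 88.6 CPM in HSC and 230 to 422 CPM elsewhere. Neutrophil markers (8 of 8 measured) summed to 16.4 CPM in HSC and 2.10 to 15.0 CPM elsewhere. For monocytes and macrophages (7 of 8 measured) the HSC sum of 17.2 CPM lay within the 6.72 to 25.9 CPM of the other libraries, and for stroma and endothelium (8 of 8 measured) 122 CPM lay within 93.2 to 170 CPM. Single genes made up most of these HSC sums: Cd68 gave 16.5 CPM of the former and Pecam1 118 CPM of the latter. Epor gave 77.5 CPM of the erythroblast sum in HSC. The megakaryocyte markers Gp1ba and Ppbp were not highest in HSC, and the erythroblast markers Alas2 and Slc4a1 were not lowest there. The part of these markers in the lower histone levels of HSC was not tested.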

How the data were processed

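Targeted RNA libraries (Ion AmpliSeq Transcriptome, mouse, from total RNA, per the labels' protocols) were deposited by the authors as raw counts per gene in 2 tables. Per the submitters' processing notes the genome build was mm10. Aligner and counting program are not given. Reads lack molecular identifiers, so intervals and floors (3 counts) cover counting error only.

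Counts were tested in R 4.3.3 with edgeR 4.0.16: filterByExpr (minimum count 10) kept 11429 genes, TMM scaling, 1 mean for each of 4 groups, 3 residual degrees of freedom and the robust quasi-likelihood F-test. Benjamini-Hochberg adjustment ran over these 11429 genes, with calls at an adjusted p under 0.05. All adjusted p-values of single genes come from this fit. Group sums are not tested.

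The members, the gene lists and the tests were chosen with earlier results of these data known. Named were the 3 highest members of each class, up to 10 called members per comparison with at least 2 CPM, testis forms, up to 3 called genes of each list with the smallest p and a fixed set. Other members are named to account for all 28. List genes absent from the tables (such as H3f3a, H2afz, Pcna) were not analysed here. All 28 members matched RefSeq by older symbol; coding sequences, stem-loops and identities come from GENCODE M21. The replicate numbers did not pair the samples. Alternatives were RLE factors, total counts, DESeq2 1.42.0, limma-voom (limma 3.58.1), no filter, a minimum count of 50, each replicate left out, only the groups compared, the replicate block and subtraction of the difference between the tables.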

Additional observations from a re-analysis of the deposited data

How the results depend on the processing

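Of the genes named with a difference, no called one changed sign under any alternative run, while 8 fold changes that were not called did. In pMT-10 against BL/6 CMPs, subtracting the difference between the tables gave log2 fold changes of -1.14 for Hist1h1b, -0.54 for Hist1h1e and -1.61 for Hist2h4. Left-out replicates there gave -0.38 to 0.091 for Hist1h1a, -0.28 to 0.30 for Hist1h1b, -0.17 to 0.23 for Hist1h1e and -0.25 to 0.29 for Hist2h4. In HSC against LSK CD150+CD48+ cells they gave -0.42 to 0.12 for Hist1h1d, -0.22 to 0.13 for Hist1h3a and -0.19 to 0.42 for Hist1h4h, and against pMT-10 CMPs -0.63 to 0.41 for Hist1h2bh. Of 1764 values of single genes under alternatives, 1392 kept their sign and their side of the threshold, 289 lost it, 67 gained it and 16 changed sign. With total counts in place of TMM the summed histone level was 13158 CPM in pMT-10 CMPs and 8837 CPM in HSC. Without a filter on low counts the histone genes called lower were 8 in pMT-10 against BL/6 CMPs and 8 in HSC against pMT-10 CMPs, and 7 were higher in LSK CD150+CD48+ cells against CMPs. DESeq2 also called 7 there. With only the groups compared in the fit, 3 were lower in pMT-10 CMPs and 1 in HSC against pMT-10 CMPs. With the difference between the tables subtracted, 11 were lower in pMT-10 CMPs, 2 of them among the 5. Left-out replicates gave 1 to 8 lower and 0 to 1 higher in pMT-10 CMPs, 0 to 9 higher in LSK CD150+CD48+ cells, and 0 to 15 lower in HSC against LSK CD150+CD48+ cells. They gave 1 to 9 lower and 0 to 1 higher in HSC against pMT-10 CMPs and 1 to 15 lower in HSC against BL/6 CMPs. Calls over all tested genes moved as well. In every comparison they were more without a pMT-10 CMP library and fewer without any other left-out library. A lone remaining library is assumed to vary like the other groups. The replicate numbers share only a number: deviations of same-numbered libraries correlated at -0.0195 and -0.0192, and with the replicate block, HSC left out, 6 were lower in pMT-10 CMPs and 4 higher in LSK CD150+CD48+ cells. The causes were not tested. With 1 or 2 libraries a group, and few reads for Hist1h2bh, Hist1h4h, Hist1h4a and Hist1h1t, small differences were not detectable.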
